A study of Mus musculus with 6 samples.

Results

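The 10 genes described here mark macrophages and monocytes, and were measured in hearts under pressure overload: Csf1r, Adgre1, Cd68, Fcgr1, Tyrobp, Laptm5, Mertk, Trem2, Ccr2 and Ly6c2. They were taken by gene symbol from a table of 18019 genes, and all 10 were found in it. The hearts came from wild-type mice, all of which had transverse aortic constriction (TAC), surgery that narrows the aortic arch and loads the left ventricle with pressure, 8 weeks before. VNS-TAC mice carried rAAV-ChAT-hChR2(H134R)-GFP in the dorsal vagal motor nucleus, a virus that puts a light-gated channel under the choline acetyltransferase promoter so that vagal neurones can be driven by light. Ctrl-TAC mice carried rAAV-ChAT-GFP, with the fluorescent protein and no channel. The column and library names of the VNS-TAC group also carry the tag 10Hz, a frequency, and those of Ctrl-TAC the tag con. Each group had 3 libraries of messenger RNA captured by oligo-dT, and the sample titles set the groups, because a treatment label reads VNS for all 6. Nothing in the labels says that the libraries came from separate animals, so a p-value here reflects only how these libraries scatter, part of which may be technical.

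Values are FPKM, fragment counts scaled to gene length and library size, so levels can be set beside each other between genes of different length. Low values of such a table step by 1 fragment, and the best match to such steps put the depth at about 13340000 to 15880000 fragments per library. The search was confined to a preset range of depths and used the length of all exons. The steps were only partly regular, from 0.217 in VNS-TAC 2 to 0.348 in Ctrl-TAC 3, where 1 is perfect. Fragment numbers given below are therefore approximate. VNS-TAC 1 and VNS-TAC 3 stood apart, since their highest correlation across genes with any other library was 0.979 and 0.971, against 0.987 to 0.992 for the other 4. In VNS-TAC 1, deviations from the gene means increased with the GC content of the gene (Spearman's rho across genes 0.566), against -0.431 to 0.023 in the other 5 libraries. The RNA of markers of other cells also stood at different levels, with no gene past the adjusted threshold. Summed over 10 neutrophil markers, the level was 58.6, 48.8 and 105 FPKM in VNS-TAC libraries 1 to 3, against 5.41, 6.69 and 2.78 FPKM in Ctrl-TAC libraries 1 to 3. Summed over 10 dendritic cell markers, it was 85.8, 55.4 and 22.7 FPKM in VNS-TAC, against 138, 131 and 154 FPKM in Ctrl-TAC. These include genes for antigen-presenting proteins that macrophages also carry. One of them, H2-Aa, alone gave 31.78, 19.01 and 7.88 FPKM in VNS-TAC, against 51.8, 48.08 and 60.58 FPKM in Ctrl-TAC. The 10 T and NK cell markers together reached at most 2.13 FPKM in VNS-TAC and 2.41 FPKM in Ctrl-TAC. The part of these markers' cells in the results that follow was not tested.

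Macrophages live in every heart as resident cells, and blood monocytes enter the heart after injury and can turn into macrophages there. The growth factors CSF1 and IL-34 keep both alive through the receptor encoded by Csf1r. Macrophages take up dead cells and antibody-coated particles through surface receptors, several of which signal through small adaptors with an immunoreceptor tyrosine-based activation motif (ITAM), and they break down what they take up in lysosomes. In mice, inflammatory monocytes are known by the chemokine receptor CCR2 and the surface protein Ly6C.

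In whole hearts the 10 genes did not move as 1 block. By mean log2 value, 8 were lower in VNS-TAC (Cd68, Ccr2 and Mertk not under every alternative) and 2, Trem2 and Ly6c2, were higher, and none passed an adjusted p of 0.05 in limma with Benjamini-Hochberg adjustment. The same was true of the whole table, in which 0 of 11422 tested genes passed (0%), while 1719 had an unadjusted p under 0.05 (15.0%). Ly6c2 was the only one of the 10 with an unadjusted p under 0.05 and the only one whose groups did not overlap. Groups without overlap were found for 2905 of the 11422 genes (25.4%), 915 higher in VNS-TAC (8.01%) and 1990 lower (17.4%), and for 3690 of the 17655 genes above 0 in any library (20.9%), of which 2405 had an unadjusted p under 0.05 (13.6%). In such bulk tissue, fewer cells of a type and less RNA per cell cannot be told apart. Differences are given on the scale of log2(FPKM + 1), which understates the fold change of low genes, with a standard error (SE) and a 95% interval. An exact permutation test of 3 against 3 libraries cannot give a p below 0.1.

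**Figure D1:**
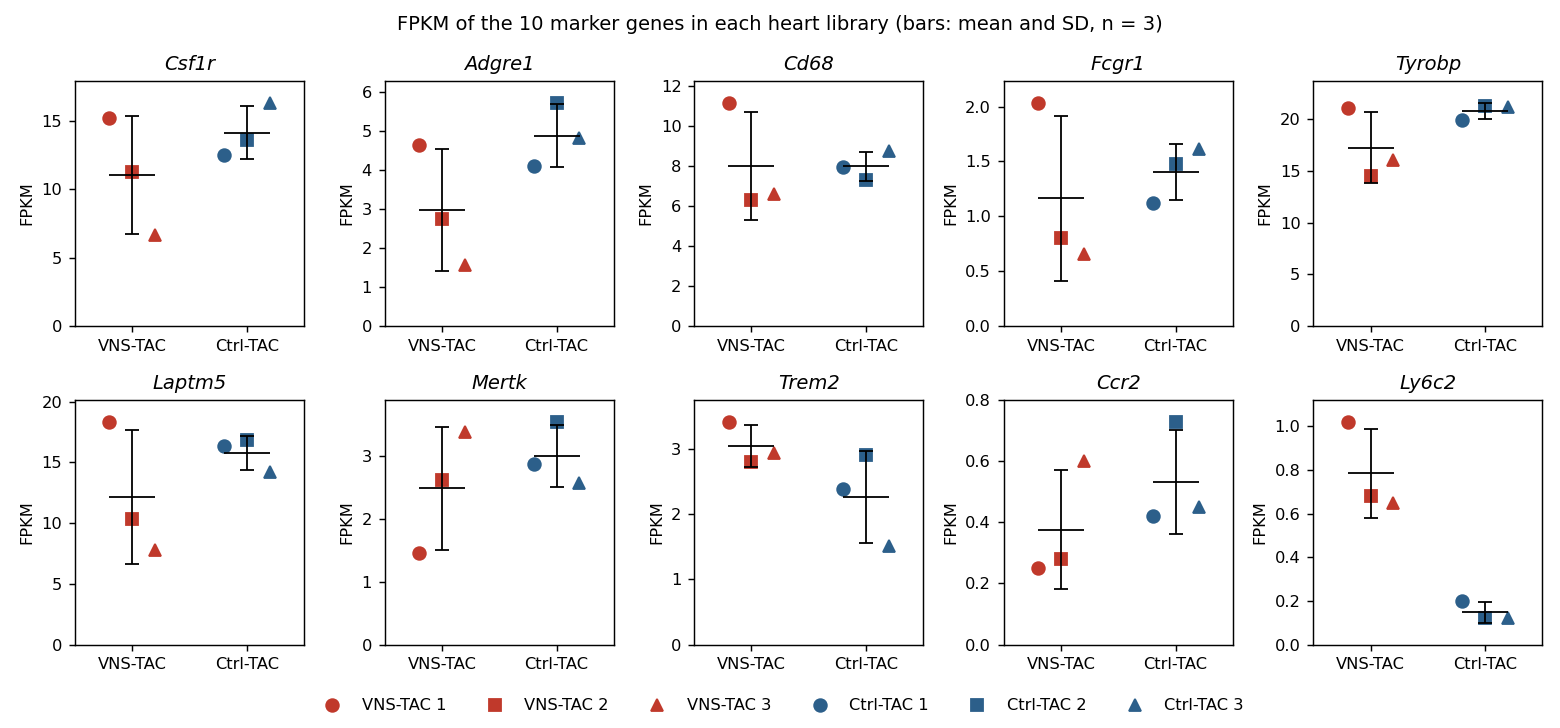
Level of each of the 10 marker genes in FPKM (vertical axes, from 0, a separate scale for each gene) in the VNS-TAC libraries (red, left) and the Ctrl-TAC libraries (blue, right). Points are libraries, horizontal bars are means and whiskers are SD (n = 3 each). Only the Ly6c2 groups are apart, with 0.65 to 1.02 FPKM in VNS-TAC and 0.12 to 0.2 FPKM in Ctrl-TAC.

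Csf1r encodes the receptor for CSF1 and IL-34 on which macrophages depend. It had 15.22, 11.23 and 6.64 FPKM in VNS-TAC libraries 1 to 3, against 12.52, 13.59 and 16.28 FPKM in Ctrl-TAC libraries 1 to 3. VNS-TAC 2 and VNS-TAC 3 lay below every Ctrl-TAC library, and VNS-TAC 1 lay among them. The mean was 11.03 ± 4.29 FPKM in VNS-TAC and 14.13 ± 1.94 FPKM in Ctrl-TAC (SD, n = 3 each), a log2 difference of -0.39 (SE 0.27, interval -1.02 to 0.24) that did not pass limma's test (adjusted p = 0.497). The ligand gene Csf1 likewise lay lower in VNS-TAC 2 and VNS-TAC 3 than in every Ctrl-TAC library, with 20.29, 12.44 and 11.78 FPKM in VNS-TAC, against 20.49, 21.11 and 16.69 FPKM in Ctrl-TAC. The other ligand gene, Il34, had 2.61, 2.64 and 1.92 FPKM in VNS-TAC and 2.74, 2.82 and 2.67 FPKM in Ctrl-TAC. Neither ligand passed the test (limma adjusted p = 0.401 for Csf1 and 0.602 for Il34).

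Adgre1 encodes F4/80, the surface protein by which mouse macrophages are usually recognised, and lies at chr17:57358581-57483529 (GRCm38). It had 4.64, 2.74 and 1.55 FPKM in VNS-TAC, against 4.09, 5.7 and 4.81 FPKM in Ctrl-TAC. The order within VNS-TAC was that of Csf1r, with VNS-TAC 3 the lowest of all and VNS-TAC 1 within the Ctrl-TAC range. Its mean of 2.98 ± 1.56 FPKM in VNS-TAC and 4.87 ± 0.807 FPKM in Ctrl-TAC (SD, n = 3 each) gave a log2 difference of -0.63 (SE 0.28, interval -1.29 to 0.03), the most negative of the 10. The limma p was 0.0595 before and 0.345 after adjustment, and the exact permutation p was 0.2.

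Mertk encodes a receptor of the TAM family (Tyro3, Axl, Mertk) that binds dead cells through bridging proteins such as Gas6, and lies at chr2:128698915-128803162. It had 1.45, 2.61 and 3.38 FPKM in VNS-TAC, against 2.87, 3.54 and 2.57 FPKM in Ctrl-TAC. Here VNS-TAC 1 was the lowest library and VNS-TAC 3 the second highest, the reverse of the order within VNS-TAC in Csf1r and Adgre1. The log2 difference of -0.23 (SE 0.23, interval -0.77 to 0.30) did not pass (limma adjusted p = 0.622), and it was 0.001 without VNS-TAC 1. The related receptor gene Axl averaged 35.24 ± 2.41 FPKM in VNS-TAC and 35.29 ± 2.31 FPKM in Ctrl-TAC, and the bridging ligand gene Gas6 averaged 98.68 ± 23.02 FPKM in VNS-TAC and 91.99 ± 6.79 FPKM in Ctrl-TAC (SD, n = 3 each). Both groups of libraries overlapped for each of these genes.

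Fcgr1 encodes the high-affinity receptor for the constant part of antibodies and lies at chr3:96282909-96293969. It had 2.03, 0.8 and 0.66 FPKM in VNS-TAC, against 1.12, 1.48 and 1.61 FPKM in Ctrl-TAC. VNS-TAC 1 was above every Ctrl-TAC library and the other 2 VNS-TAC libraries were below every one. The log2 difference was -0.20 (SE 0.24, interval -0.76 to 0.36, limma adjusted p = 0.692).

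Tyrobp encodes DAP12, the ITAM adaptor through which TREM2 and other receptors signal, and lies at chr7:30413782-30417582. It was the most abundant of the 10 per kilobase, with 21.1, 14.54 and 16.04 FPKM in VNS-TAC, against 19.92, 21.23 and 21.2 FPKM in Ctrl-TAC. VNS-TAC 2 and VNS-TAC 3 were below the Ctrl-TAC libraries, which lay close together. The mean was 17.23 ± 3.44 FPKM in VNS-TAC and 20.78 ± 0.748 FPKM in Ctrl-TAC (SD, n = 3 each), a log2 difference of -0.27 (SE 0.15, interval -0.63 to 0.09, limma adjusted p = 0.419). Fcer1g, the gene of the adaptor that serves Fc receptors, had 19.4, 12.26 and 17.29 FPKM in VNS-TAC, against 18.98, 17.94 and 12.94 FPKM in Ctrl-TAC, with wide overlap.

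Trem2 encodes a receptor for lipids and dead-cell debris that signals through DAP12, and lies at chr17:48346401-48352276. It had 3.42, 2.8 and 2.94 FPKM in VNS-TAC, against 2.39, 2.91 and 1.51 FPKM in Ctrl-TAC. The VNS-TAC libraries lay in the upper part of the range, and Ctrl-TAC 2 lay among them. The mean was 3.05 ± 0.325 FPKM in VNS-TAC and 2.27 ± 0.708 FPKM in Ctrl-TAC (SD, n = 3 each), a log2 difference of 0.33 (SE 0.19, interval -0.11 to 0.77) that did not pass (limma adjusted p = 0.420, exact permutation p = 0.2). The receptor gene was thus higher on average in VNS-TAC while its adaptor gene was lower on average, and neither difference passed the test.

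Cd68 and Laptm5 encode membrane proteins of late endosomes and lysosomes. Cd68, at chr11:69664213-69666170, had 11.15, 6.3 and 6.63 FPKM in VNS-TAC, against 7.95, 7.29 and 8.76 FPKM in Ctrl-TAC. Its means hardly differed, at 8.03 ± 2.71 FPKM in VNS-TAC and 8.00 ± 0.736 FPKM in Ctrl-TAC (SD, n = 3 each), because VNS-TAC 1 was above and the other 2 VNS-TAC libraries below all Ctrl-TAC libraries. The log2 difference was -0.03 (SE 0.21, interval -0.53 to 0.46, limma adjusted p = 0.950), and its sign turned with 2 other scalings (0.06 with quantile normalization and 0.06 with size factors). Laptm5, at chr4:130912890-130936148, is expressed across blood cells. It had 18.35, 10.36 and 7.8 FPKM in VNS-TAC, against 16.32, 16.86 and 14.2 FPKM in Ctrl-TAC, a log2 difference of -0.43 (SE 0.27, interval -1.07 to 0.21, limma adjusted p = 0.468). As for Cd68 and Fcgr1, VNS-TAC 1 lay above the Ctrl-TAC range and the other 2 VNS-TAC libraries below it.

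Ccr2 encodes the receptor that brings inflammatory monocytes out of the marrow and into tissue, and lies at chr9:124101918-124109140. It was low throughout, with 0.25, 0.28 and 0.6 FPKM in VNS-TAC, against 0.42, 0.73 and 0.45 FPKM in Ctrl-TAC. At the exon length of the gene these values stand for about 26.7 to 62.1 fragments per library in VNS-TAC and 40.0 to 65.8 fragments in Ctrl-TAC. VNS-TAC 1 and VNS-TAC 2 were the lowest libraries, and VNS-TAC 3 was the second highest. The log2 difference of -0.16 (SE 0.12, interval -0.45 to 0.13) did not pass in the limma fit of all 17655 genes above 0 (adjusted p = 0.606), the fit used for both genes under a mean of 1 FPKM. It was 0.01 with each library's GC trend removed.

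Ly6c2 encodes the Ly6C protein that marks inflammatory monocytes, and lies at chr15:75108161-75112066. It had 1.02, 0.68 and 0.65 FPKM in VNS-TAC, against 0.2, 0.12 and 0.12 FPKM in Ctrl-TAC. All 3 VNS-TAC libraries were above all 3 Ctrl-TAC libraries, an arrangement that 1077 of the 17655 genes shared (6.10%). The mean was 0.783 ± 0.205 FPKM in VNS-TAC and 0.147 ± 0.0462 FPKM in Ctrl-TAC (SD, n = 3 each), 5.34 times as high. The log2 difference was 0.63 (SE 0.09, interval 0.42 to 0.85), with a limma p of 0.000265 before and 0.162 after adjustment. An unadjusted p under 0.05 in this direction was found for 585 genes of that fit (3.31%). With a pseudocount of 0.1 in place of 1 the difference was 1.83. The exact permutation p was 0.1, the smallest possible.

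The Ly6c2 values rest on few fragments. At the length of the coding transcript Ly6c2-201, 822 bases, they stand for about 13.3, 7.9 and 8.2 fragments in VNS-TAC, against 2.3, 1.3 and 1.4 fragments in Ctrl-TAC. At the length of all its exons, 2740 bases, the basis used for Ccr2, they stand for about 44.4, 26.3 and 27.2 fragments in VNS-TAC, against 7.7, 4.4 and 4.8 fragments in Ctrl-TAC. Which length the authors used for Ly6c2 is not given in the sources used here. At the shorter length, rounded sums of 29 fragments in VNS-TAC and 5 in Ctrl-TAC give a ratio of 5.38 with a binomial 95% interval of 2.06 to 17.8. That interval covers counting error only, depends on the estimated depths and would be narrower at the longer length. At neither length are the Ctrl-TAC values whole fragments, and the depths are only approximate, so these values cannot show which length was used. The sums and the interval are therefore rough. Ly6c2 also has a near copy close by on chromosome 15, Ly6c1, which is strongly expressed in endothelial cells. Ly6c1 had 184.4, 204.8 and 267.7 FPKM in VNS-TAC, against 146.1, 159.4 and 196.6 FPKM in Ctrl-TAC, a log2 difference of 0.38 (SE 0.18, limma adjusted p = 0.366) with overlapping groups.

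The parts of the coding sequences in which the copies differ are shown because they set how well fragments of one can be told from fragments of the other. They are from GRCm38 (GENCODE M21), minus strand, chr15:75108543-75111667 for Ly6c2-201 and chr15:75045402-75048511 for Ly6c1-201, with introns removed, 5′ to 3′, and capitals mark the bases that differ between the copies:
Ly6c2, coding bases 1 to 75: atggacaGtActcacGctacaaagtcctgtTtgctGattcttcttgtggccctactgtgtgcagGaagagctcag
Ly6c1, coding bases 1 to 75: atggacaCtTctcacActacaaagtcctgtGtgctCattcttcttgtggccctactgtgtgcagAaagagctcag
Ly6c2, coding bases 244 to 396: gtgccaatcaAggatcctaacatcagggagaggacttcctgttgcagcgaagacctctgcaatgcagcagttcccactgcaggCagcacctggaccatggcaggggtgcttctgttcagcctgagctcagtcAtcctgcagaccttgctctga
Ly6c1, coding bases 244 to 396: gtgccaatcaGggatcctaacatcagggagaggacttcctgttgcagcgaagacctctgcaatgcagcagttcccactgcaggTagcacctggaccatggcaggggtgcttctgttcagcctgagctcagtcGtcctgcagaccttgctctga
The bases between these stretches are the same in both. Of 396 coding bases, 9 differ, an identity of 97.7%, and the longest stretch without a difference is 188 bases. Over the whole transcripts, 252 of 773 windows of 50 bases of Ly6c2 occur unchanged in Ly6c1 (32.6%), and 114 of 723 windows of 100 bases (15.8%). How fragments that fit both copies were counted is not given in the sources used here, so the Ly6c2 level is uncertain. Ly6c2 stood at 0.553%, 0.332% and 0.243% of the Ly6c1 level in VNS-TAC, against 0.137%, 0.0753% and 0.061% in Ctrl-TAC. This share differed between libraries and did not overlap between the groups. It was computed after the values were seen and was not tested.

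**Figure D2:**
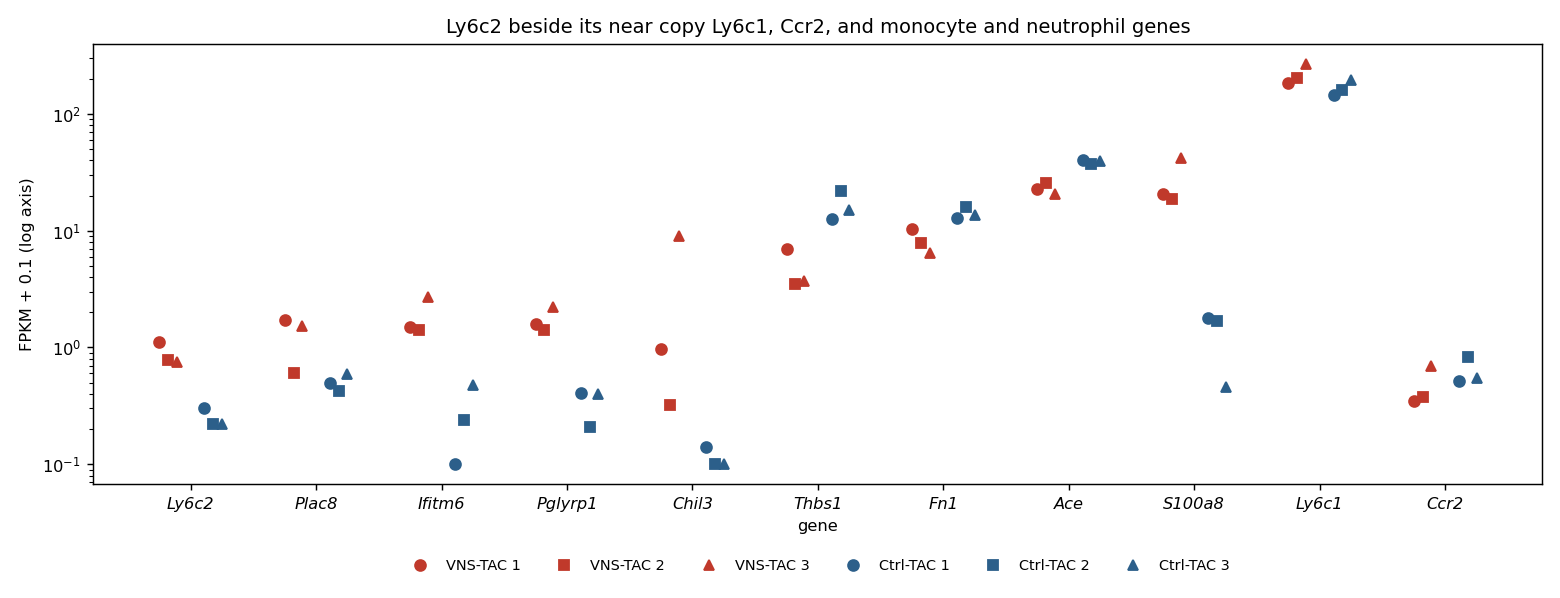
FPKM + 0.1 on a log axis for Ly6c2, the monocyte-associated genes Plac8, Ifitm6, Pglyrp1, Chil3, Thbs1, Fn1 and Ace, the neutrophil gene S100a8, the near copy Ly6c1, and Ccr2. Points are libraries, VNS-TAC in red on the left of each pair and Ctrl-TAC in blue on the right. Ly6c2, Plac8, Ifitm6, Pglyrp1, Chil3 and S100a8 are higher in all VNS-TAC libraries, Thbs1, Fn1 and Ace are lower in all of them, and Ly6c1 and Ccr2 overlap; Plac8, Ifitm6, Pglyrp1 and Chil3 were picked after their values were seen.

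Ly6c2 and Ccr2, both used for inflammatory monocytes, thus differed in their arrangement, the first apart between the groups and the second overlapping. Other genes listed for classical monocytes were also divided. Of 16 such genes 8 were tested, 4 higher and 4 lower in VNS-TAC, with a median log2 difference of -0.04, against -0.08 over all tested genes. The 3 with an unadjusted p under 0.05 were Thbs1, Fn1 and Vcan, all lower in VNS-TAC and all genes that cells other than monocytes also express. Thbs1, for thrombospondin 1, had 6.88, 3.37 and 3.64 FPKM in VNS-TAC, against 12.42, 21.69 and 14.91 FPKM in Ctrl-TAC (limma adjusted p = 0.163). Fn1, for fibronectin, had 10.19, 7.73 and 6.4 FPKM in VNS-TAC, against 12.69, 15.73 and 13.41 FPKM in Ctrl-TAC (limma adjusted p = 0.221). Chil3, for a chitinase-like protein of myeloid cells and named after its values were seen, lay the other way, with 0.87, 0.22 and 8.97 FPKM in VNS-TAC, against 0.04, 0 and 0 FPKM in Ctrl-TAC (limma adjusted p = 0.355). Among the 8 genes under a mean of 1 FPKM, the groups did not overlap for Plac8 and Ifitm6, named here after their values were seen. Plac8 had 1.62, 0.5 and 1.42 FPKM in VNS-TAC, against 0.4, 0.32 and 0.49 FPKM in Ctrl-TAC. Ifitm6 had 1.41, 1.3 and 2.58 FPKM in VNS-TAC, against 0, 0.14 and 0.38 FPKM in Ctrl-TAC. Their adjusted p was 0.317 for Plac8 and 0.162 for Ifitm6 in limma.

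Neutrophil genes were arranged as Ly6c2 was. All 5 tested neutrophil markers were higher in every VNS-TAC library, and all 5 had an unadjusted p under 0.05, with a median log2 difference of 2.14. S100a8, an abundant calcium-binding protein of neutrophils and monocytes, had 20.57, 18.43 and 41.74 FPKM in VNS-TAC, against 1.68, 1.57 and 0.36 FPKM in Ctrl-TAC. S100a9, for its partner, had 24.62, 20.96 and 41.97 FPKM in VNS-TAC, against 0.93, 1.83 and 0.39 FPKM in Ctrl-TAC. Neither passed after adjustment (limma adjusted p = 0.0936 for S100a8 and 0.0508 for S100a9). Within VNS-TAC the order differed, since VNS-TAC 3 had the highest S100a8 and the lowest Ly6c2.

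The 4 chemokine genes listed here as CCR2 ligands were highest in VNS-TAC 1. Ccl2 had 10.66, 1.45 and 1.29 FPKM in VNS-TAC, against 3.88, 8.9 and 3.76 FPKM in Ctrl-TAC. Ccl8 had 30.68, 5.45 and 2.58 FPKM in VNS-TAC, against 2.07, 3.78 and 2.81 FPKM in Ctrl-TAC. Ccl7 and Ccl12 were also highest in VNS-TAC 1, and lower in the other 2 VNS-TAC libraries than in every Ctrl-TAC library. Summed over these 4 genes the level was 52.1, 8.22 and 6.05 FPKM in VNS-TAC, against 11.3, 19.9 and 10.7 FPKM in Ctrl-TAC. Ccl8 alone gave 30.68 FPKM of the sum in VNS-TAC 1. None of the 4 had an unadjusted p under 0.05.

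Read by library, the 10 genes separated VNS-TAC 1 from the other VNS-TAC libraries. The mean of log2(FPKM + 1) over the 10 was 2.52, 2.16 and 2.07 in VNS-TAC libraries 1 to 3, against 2.33, 2.47 and 2.36 in Ctrl-TAC libraries 1 to 3. VNS-TAC 1 was the highest of all 6 and VNS-TAC 3 the lowest. The group means were 2.25 ± 0.24 in VNS-TAC and 2.39 ± 0.07 in Ctrl-TAC (SD, n = 3 each), a difference of -0.14, smaller than the spread within VNS-TAC. VNS-TAC 1 held the highest value for 5 of the 10 genes, and VNS-TAC 2 and VNS-TAC 3 for none.

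**Figure D3:**
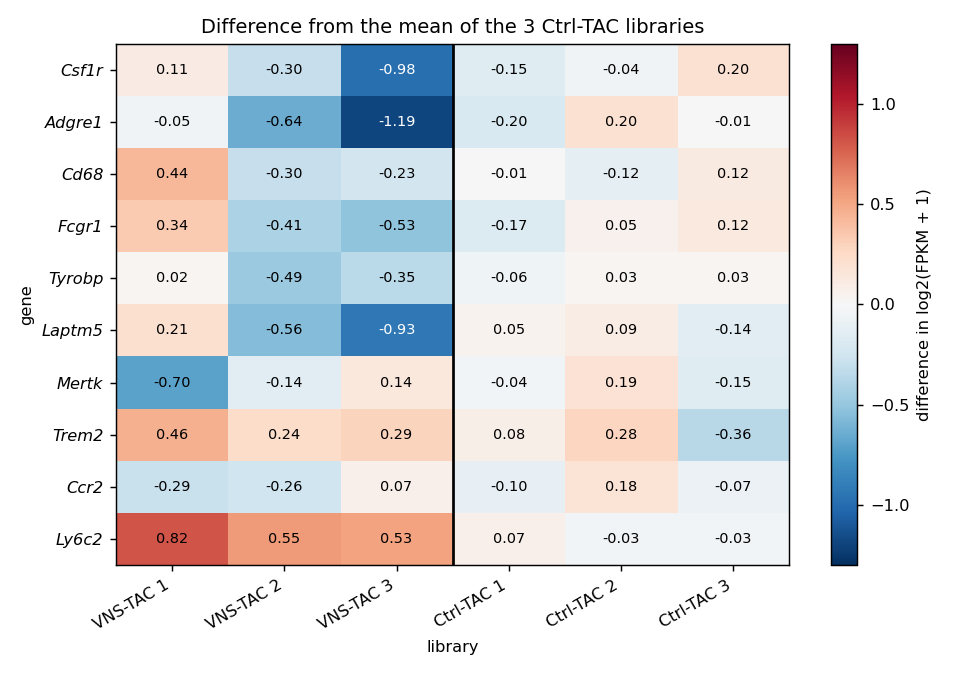
Difference in log2(FPKM + 1) of each of the 10 genes (rows) in each library (columns) from the mean of the 3 Ctrl-TAC libraries, with VNS-TAC to the left of the line, red for higher and blue for lower. Csf1r, Adgre1 and Laptm5 are darkest blue in VNS-TAC 3 (-0.98, -1.19 and -0.93), Mertk is lowest in VNS-TAC 1 (-0.70), and Ly6c2 is red in every VNS-TAC library (0.82, 0.55 and 0.53).

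For 6 of the 10 genes, Csf1r, Adgre1, Cd68, Fcgr1, Tyrobp and Laptm5, VNS-TAC 2 and VNS-TAC 3 were below all Ctrl-TAC libraries and VNS-TAC 1 was not. This arrangement, described after the values were seen, was found for 1080 of 11422 tested genes (9.46%). In 3 of the 6, Cd68, Fcgr1 and Laptm5, VNS-TAC 1 was also above all Ctrl-TAC libraries, as for 526 tested genes (4.61%). Without VNS-TAC 1, 6 of the 10 genes had an unadjusted p under 0.05 in limma, while 2520 of 11476 genes did (22%). They were Csf1r (-0.64), Adgre1 (-0.92), Fcgr1 (-0.47), Tyrobp (-0.42) and Laptm5 (-0.75), lower in VNS-TAC, and Ly6c2 (0.54), higher. None passed after adjustment, the closest being Laptm5 at an adjusted p of 0.0915. Without VNS-TAC 3 the differences were smaller, at -0.10 for Csf1r, -0.34 for Adgre1, -0.04 for Fcgr1, -0.23 for Tyrobp and -0.18 for Laptm5, and 2 of the 10 genes, Ccr2 (-0.27) and Ly6c2 (0.69), had an unadjusted p under 0.05 in limma, while 2474 of 11375 genes did (21.7%). VNS-TAC 1 is the library whose values increased with GC content. The GC content was 53.6% for Cd68, 51.8% for Fcgr1, 54.4% for Laptm5, 53.4% for Trem2 and 49.2% for Ly6c2, all highest there. Mertk (48.0%) and Ccr2 (39.2%) were lowest there. Adgre1 (47.6%), Csf1r (54.2%) and Tyrobp (54.55%) lay within the Ctrl-TAC range there. With the GC trend of each library removed, Csf1r differed by -0.41, Adgre1 by -0.50 and Laptm5 by -0.45 on the log2 scale. Mertk then differed by -0.12 and Ly6c2 by 0.69, and none of these passed the threshold. The part of GC content in the levels of VNS-TAC 1 was not tested.

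**Figure D4:**
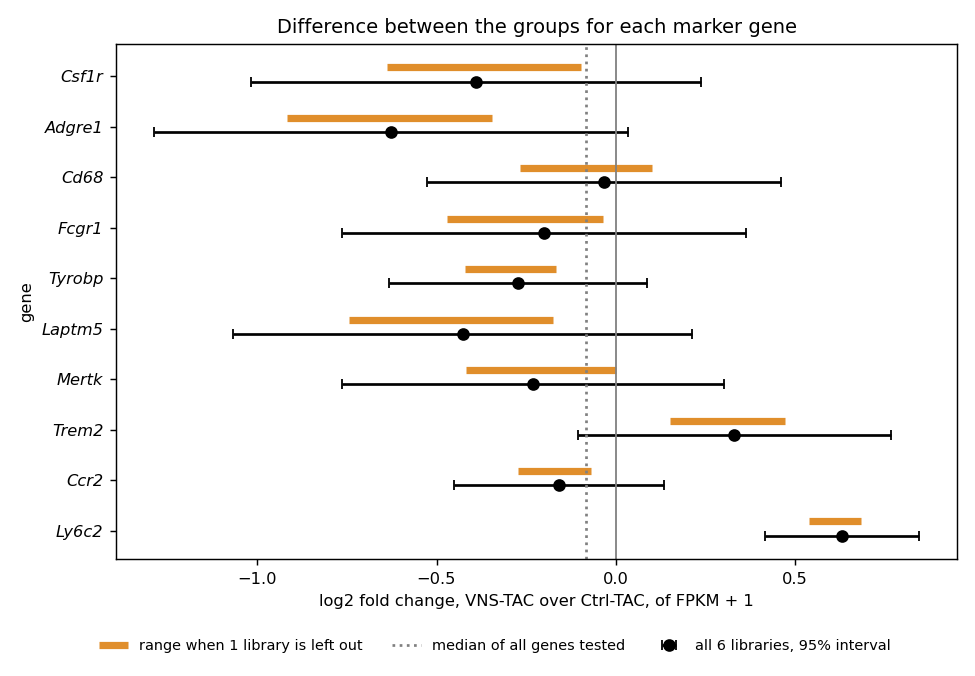
Log2 fold change of FPKM + 1, VNS-TAC over Ctrl-TAC (horizontal axis), for each of the 10 genes: black points and bars give the limma estimate and its 95% interval from all 6 libraries, and orange bars the range when each library is left out in turn. The dotted line is the median of all tested genes (-0.08). The interval lies clear of 0 for Ly6c2 (0.42 to 0.85) and spans 0 for the other 9.

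The promoters of Cd68, Fcgr1 and Laptm5, whose VNS-TAC libraries lay the same way around the Ctrl-TAC range, are shown with that of Trem2, which lay on the other side. The sequences are from RefSeq (GRCm38.p6) and give the 250 bases before the start used for each window, 5′ to 3′ on the strand of the gene. For Cd68, Fcgr1 and Trem2 that start is the outer end of the gene span given above. For Laptm5 the whole stretch lies inside that span, so its start is a later one. Capitals mark the core of the binding motif of PU.1, the transcription factor of the myeloid lineage, GAGGAA or on the other strand TTCCTC. They span chr11:69666171-69666420 (minus strand) for Cd68, chr3:96293970-96294219 (minus) for Fcgr1, chr4:130913066-130913315 (plus) for Laptm5 and chr17:48346151-48346400 (plus) for Trem2:
Cd68: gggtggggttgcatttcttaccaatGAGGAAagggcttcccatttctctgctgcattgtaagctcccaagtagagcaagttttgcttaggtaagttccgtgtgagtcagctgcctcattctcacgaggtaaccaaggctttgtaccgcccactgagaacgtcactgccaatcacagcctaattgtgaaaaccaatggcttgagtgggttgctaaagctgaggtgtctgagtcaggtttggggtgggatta
Fcgr1: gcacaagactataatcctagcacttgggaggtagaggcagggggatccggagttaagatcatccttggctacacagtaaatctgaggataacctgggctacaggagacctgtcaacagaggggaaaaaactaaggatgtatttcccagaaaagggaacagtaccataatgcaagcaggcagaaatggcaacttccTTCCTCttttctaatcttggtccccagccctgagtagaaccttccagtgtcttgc
Laptm5: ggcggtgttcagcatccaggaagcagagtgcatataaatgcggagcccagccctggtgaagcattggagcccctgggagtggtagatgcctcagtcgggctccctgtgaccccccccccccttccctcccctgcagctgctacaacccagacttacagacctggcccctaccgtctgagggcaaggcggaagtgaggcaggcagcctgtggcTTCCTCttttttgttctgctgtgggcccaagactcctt
Trem2: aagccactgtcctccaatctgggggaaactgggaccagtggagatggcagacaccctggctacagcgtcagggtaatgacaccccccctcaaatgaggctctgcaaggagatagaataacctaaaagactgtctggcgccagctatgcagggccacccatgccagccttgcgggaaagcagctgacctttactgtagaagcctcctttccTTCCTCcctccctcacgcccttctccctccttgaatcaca
The motif begins 225 bases before the start used in Cd68, 55 in Fcgr1, 38 in Laptm5 and 40 in Trem2. Cd68 holds a second match that begins 29 bases after the start, outside the stretch shown. In windows of 300 bases, 250 before and 50 after the start, 5 of the 7 marker genes with an entry hold it (71.4%), the fifth being Ly6c2, against 8446 of 27025 genes in the RefSeq table (31.3%). Mertk and Ccr2 do not hold these letters in their windows, and Csf1r, Adgre1 and Tyrobp have no entry. The Ccr2 window also lies inside its gene span, and those of Ly6c2 overlap the span of that gene. A match is a description of the letters, and a gene on either side of the comparison had one. Spi1, the gene of PU.1 itself, had 8.04, 3.65 and 3.96 FPKM in VNS-TAC, against 5.92, 4.61 and 5.22 FPKM in Ctrl-TAC (limma adjusted p = 0.909), so that VNS-TAC 1 was again above and the other 2 below all Ctrl-TAC libraries.

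Each gene was also set against the mean of the 10 genes in the same library, on the scale of log2(FPKM + 1). This takes out a level common to all of them only in part, because the added 1 damps changes in low genes. Ly6c2 and Ccr2, under a mean of 1 FPKM, are the most affected. On this measure, 3 of the 10 had groups that did not overlap. Of all 17655 genes above 0, set against the same mean, 1948 did not overlap (11.0%). The 10 genes themselves make up that mean, so the counts are not read against each other. Adgre1 stood at -0.03, -0.26 and -0.72 in VNS-TAC, against 0.01, 0.27 and 0.18 in Ctrl-TAC, on the log2 scale. Trem2 stood at -0.38, -0.23 and -0.09 in VNS-TAC, against -0.57, -0.50 and -1.03 in Ctrl-TAC. Ly6c2 stood at -1.51, -1.41 and -1.35 in VNS-TAC, against -2.07, -2.31 and -2.20 in Ctrl-TAC. Relative to that mean, Adgre1 was thus lower, and Trem2 and Ly6c2 higher, in every VNS-TAC library than in any Ctrl-TAC library, and the other 7 genes overlapped. In FPKM, Trem2 stood at 73.7%, 102% and 190% of Adgre1 in VNS-TAC, against 58.4%, 51.1% and 31.4% in Ctrl-TAC. It stood at 22.5%, 24.9% and 44.3% of Csf1r in VNS-TAC, against 19.1%, 21.4% and 9.28% in Ctrl-TAC. These pairs were chosen after the values were seen and carry no test. By contrast Mertk stood at 9.53%, 23.2% and 50.9% of Csf1r in VNS-TAC, against 22.9%, 26% and 15.8% in Ctrl-TAC, with wide overlap.

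The genes whose log2 values followed the mean of the 8 marker genes over 1 FPKM most closely across the 6 libraries were C5ar1 (Pearson's r 0.994), Fam78b (0.994) and Mrrf (0.992). C5ar1, the receptor for the complement fragment C5a on myeloid cells, had 5.4, 2.92 and 2.49 FPKM in VNS-TAC, against 4.12, 5 and 4.24 FPKM in Ctrl-TAC. These are descriptions over 6 libraries that share the standing of VNS-TAC 1, picked as the highest of all tested genes.

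No gene of the wider macrophage and monocyte lists passed after adjustment, and most lists had more lower than higher genes, as the whole table did. Over all tested genes, 7056 of 11422 were lower in VNS-TAC (61.8%) and 1286 were lower with an unadjusted p under 0.05 (11.3%), against 433 higher (3.79%). Of 26 tested genes of the myeloid lineage and the CSF1 receptor axis, 22 were lower in VNS-TAC and 4 higher, with a median of -0.20, and 3 lower and 1 higher had an unadjusted p under 0.05. Ptprc, for the leukocyte surface protein CD45, had 0.63, 0.72 and 0.89 FPKM in VNS-TAC, against 1.39, 1.39 and 1.23 FPKM in Ctrl-TAC, with no overlap (limma adjusted p = 0.251). Csf2ra, for a subunit of the GM-CSF receptor, had 5.74, 6.09 and 6.53 FPKM in VNS-TAC, against 9.18, 8.56 and 7.32 FPKM in Ctrl-TAC (limma adjusted p = 0.264). Cx3cr1, the fractalkine receptor of resident macrophages and patrolling monocytes, had 0.77, 0.55 and 0.16 FPKM in VNS-TAC, against 2.19, 1.18 and 1.06 FPKM in Ctrl-TAC (limma adjusted p = 0.288). For these 3 genes VNS-TAC 1 was also below every Ctrl-TAC library, unlike for Csf1r. Itgam, for the integrin CD11b of neutrophils, monocytes and macrophages, had 1.47, 1.19 and 2.41 FPKM in VNS-TAC, against 1.34, 1.32 and 1.57 FPKM in Ctrl-TAC.

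In the ITAM adaptor list 5 of 8 tested genes were lower in VNS-TAC and 3 higher, with a median of -0.13. Lyn, for a kinase that phosphorylates these motifs, had 7.58, 6.45 and 5.1 FPKM in VNS-TAC, against 8.6, 9.15 and 8.01 FPKM in Ctrl-TAC (limma adjusted p = 0.310). Inpp5d, for the phosphatase SHIP1 that opposes the signal, had 3.27, 2.73 and 2.81 FPKM in VNS-TAC, against 3.97, 4.84 and 3.37 FPKM in Ctrl-TAC (limma adjusted p = 0.333). Under 1 FPKM, Hcst, for the related adaptor DAP10 and named after its values were seen, was higher in every VNS-TAC library, with 0.72, 1.1 and 1.05 FPKM, against 0, 0.34 and 0.15 FPKM in Ctrl-TAC (limma adjusted p = 0.162). Of the 5 tested genes around Fc receptors, 3 were lower and 2 higher, with a median of -0.03. Fcgr4 had 1.13, 0.76 and 3.63 FPKM in VNS-TAC, against 0.82, 0.58 and 0.32 FPKM in Ctrl-TAC, with VNS-TAC 3 far above the others. Fcgrt, for the neonatal Fc receptor, overlapped widely.

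Around Mertk, 13 of 18 tested genes for the clearance of dead cells were lower in VNS-TAC and 5 higher, with a median of -0.19, and 4 lower genes had an unadjusted p under 0.05. Stab1, for a scavenger receptor of macrophages and some endothelium, had 11.74, 9.07 and 6.55 FPKM in VNS-TAC, against 13.89, 15.88 and 13.82 FPKM in Ctrl-TAC (limma adjusted p = 0.251). Elmo1, for a protein that drives engulfment, had 3.25, 3.35 and 2.69 FPKM in VNS-TAC, against 5.46, 4.67 and 4.11 FPKM in Ctrl-TAC (limma adjusted p = 0.248). C1qa, for a complement protein made by macrophages, had 115.1, 65.79 and 52.56 FPKM in VNS-TAC, against 76.51, 79.38 and 79.04 FPKM in Ctrl-TAC. Its VNS-TAC libraries lay the same way around the Ctrl-TAC range as those of Cd68, Fcgr1 and Laptm5.

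Genes found with Trem2 in lipid-laden macrophages were evenly divided, 7 lower and 7 higher of 14, with a median of -0.01 and none with an unadjusted p under 0.05. Gpnmb, for a glycoprotein of such cells, had 0.85, 1.22 and 4.69 FPKM in VNS-TAC, against 0.85, 0.78 and 1.06 FPKM in Ctrl-TAC, and Spp1, for osteopontin, had 0.51, 1.13 and 0.58 FPKM in VNS-TAC, against 0.81, 1.56 and 0.7 FPKM in Ctrl-TAC. Fabp5, for a fatty acid binding protein, had 31.76, 20.23 and 14.85 FPKM in VNS-TAC, against 32.15, 32.58 and 30.98 FPKM in Ctrl-TAC. Of these 4 genes Trem2 alone was above the Ctrl-TAC mean in each VNS-TAC library, but this was not particular to it. Apoe, a tested gene of the list named after its values were seen, was higher in every VNS-TAC library than in any Ctrl-TAC library. Its log2 difference was 0.151 (limma adjusted p = 0.548). Fabp4 of the same list was lower in every VNS-TAC library, with -0.385 (limma adjusted p = 0.398). Lysosome genes, the setting of Cd68 and Laptm5, were 12 lower and 13 higher of 25, with a median of 0.01 and 1 gene, Atp6v1a for a proton pump subunit, lower with an unadjusted p under 0.05.

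Of 12 tested genes of resident cardiac macrophages, 8 were lower in VNS-TAC and 4 higher, with a median of -0.18. Fcna, for a ficolin, had 3.76, 2.97 and 2.72 FPKM in VNS-TAC, against 1.66, 2.02 and 2.26 FPKM in Ctrl-TAC (limma adjusted p = 0.257). Igf1, the growth factor gene, had 1.36, 1.73 and 1.07 FPKM in VNS-TAC, against 2.59, 2.38 and 1.88 FPKM in Ctrl-TAC (limma adjusted p = 0.264). Of 5 tested genes of non-classical monocytes, 3 were lower and 2 higher, with a median of -0.38. Under 1 FPKM, Pglyrp1, for a peptidoglycan-binding protein also made by neutrophils and named after its values were seen, had 1.48, 1.32 and 2.12 FPKM in VNS-TAC, against 0.31, 0.11 and 0.3 FPKM in Ctrl-TAC (limma adjusted p = 0.162). Ace, for angiotensin-converting enzyme, which endothelium also makes, had 22.48, 25.52 and 20.41 FPKM in VNS-TAC, against 40.39, 37.4 and 39.12 FPKM in Ctrl-TAC (limma adjusted p = 0.156). Nr4a1, the transcription factor on which these monocytes depend, had 29.41, 35.07 and 25.62 FPKM in VNS-TAC, against 33.29, 41.2 and 43.52 FPKM in Ctrl-TAC, and it too is active in many cells.

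**Figure D5:**
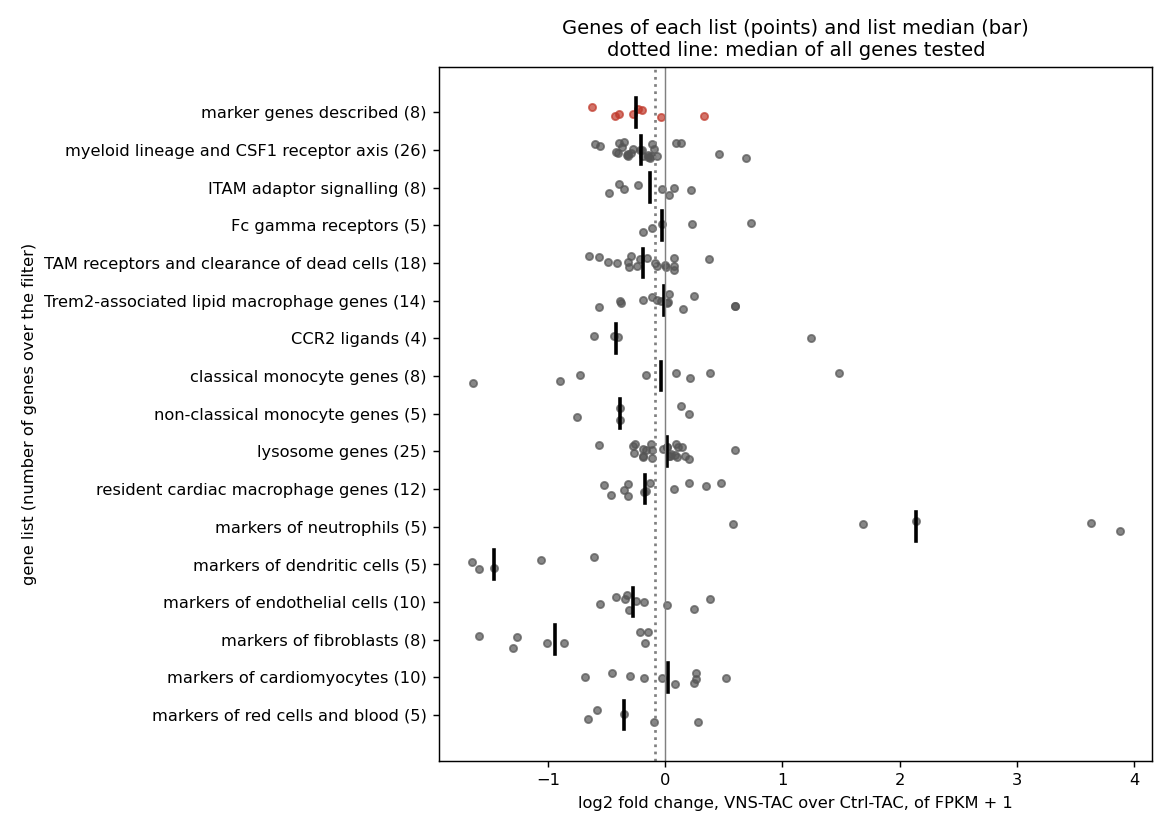
Log2 fold change of FPKM + 1, VNS-TAC over Ctrl-TAC (horizontal axis), of every tested gene (points) in each list (rows, with the number tested), with the list median as a black bar, the 8 tested marker genes in red and the median of all tested genes (-0.08) as a dotted line. Neutrophil markers lie to the right (median 2.14), dendritic cell and fibroblast markers to the left (medians -1.46 and -0.94), and the macrophage lists between them.

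Markers of other heart cells moved beside these lists. All 5 tested dendritic cell markers were lower in every VNS-TAC library, with an unadjusted p under 0.05 and a median of -1.46. Among them H2-Aa, for an antigen-presenting protein that macrophages also carry, had 31.78, 19.01 and 7.88 FPKM in VNS-TAC, against 51.8, 48.08 and 60.58 FPKM in Ctrl-TAC (limma adjusted p = 0.232). All 8 fibroblast markers were lower on average, 5 with an unadjusted p under 0.05, with a median of -0.94. The 10 endothelial markers had a median of -0.28, the 10 cardiomyocyte markers 0.03 and the 5 red cell genes -0.35. Red cell genes summed to 1503, 310 and 25.1 FPKM in VNS-TAC, against 578, 272 and 183 FPKM in Ctrl-TAC, so that VNS-TAC 1 was the highest and VNS-TAC 3 the lowest, as for the mean of the 10 marker genes. The 5 B cell markers found in the table summed to at most 1.4 FPKM in VNS-TAC and 1.43 FPKM in Ctrl-TAC. No list had a marker at 0 in all 6 libraries, but the natural killer cell marker Ncr1 was at 0 in all VNS-TAC libraries and the resident macrophage gene Marco at 0 in all Ctrl-TAC libraries and at most 0.03 FPKM in VNS-TAC.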

How the data were processed

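Gene levels were measured in 3 VNS-TAC and 3 Ctrl-TAC heart libraries. The authors deposited FPKM values per the file headers, 18019 NCBI gene IDs by 6 columns. Per the submitters' processing notes, HISAT, featureCounts 1.5.0-p3, DESeq 1.8.3 and GRCm38 were used, with no role given for each. The VNS-TAC columns are numbered 1 to 3 where the labels give library names 4 to 6, so the table's numbers are used here. Symbols came from RefSeq GRCm38.p6 for 17890 IDs and from GENCODE for 15 more, and 114 had none.

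Values were analysed as log2(FPKM + 1) with limma 3.58.1 in R 4.3.3, with an intensity trend and Benjamini-Hochberg adjustment at 0.05 over the 11422 genes that averaged at least 1 FPKM. Ccr2 and Ly6c2 lie under that filter and took their values from the fit of all 17655 genes above 0. Depths were estimated from the steps of low FPKM values and entered no test. Tables and figures used Python 3.11.15, pandas 2.3.3, numpy 2.4.6, scipy 1.17.1 and matplotlib 3.10.9.

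The marker genes, the lists and the tests were chosen with earlier results of these data known, so no count over them is independent evidence. The text names all 10 marker genes, the 2 tested genes of each list with the smallest unadjusted p or some of them, a set of context genes such as Csf1, Axl and Ly6c1, and the 3 genes most like the marker mean, while genes named for their values are said to be so. Alternatives were a pseudocount of 0.1, no filter, a mean of at least 5 FPKM, size factors, quantile normalization, no intensity trend, array weights, removal of the GC trend of each library, and each library left out in turn.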

Additional observations from a re-analysis of the deposited data

How the results depend on the processing

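Under the alternatives the mean difference of the 10 marker genes kept its sign. It was -0.138 in the reported fit, -0.029 with quantile normalization, -0.065 with size factors, -0.100 with the GC trend removed and -0.202 with array weights, and ranged from -0.274 to -0.047 with 1 library left out. Cd68 changed sign, to 0.06 with quantile normalization (0.064) or size factors (0.058), and ranged from -0.267 to 0.101 with 1 library left out. Ccr2 changed sign, to 0.009 with the GC trend removed, and Mertk ranged from -0.418 to 0.001 with 1 library left out. With array weights 3 of the 10 genes passed the adjusted threshold, Tyrobp (adjusted p = 0.0336 in limma), Laptm5 (0.0359) and Ly6c2 (0.0444), along with 16 genes of the other myeloid lists and 1016 of all tested genes. Those weights were 0.246 for VNS-TAC 1 and 0.247 for VNS-TAC 3, against 2.82 for VNS-TAC 2. Otherwise at most a few genes of the table passed: 2 with the GC trend removed, 2 with quantile normalization, 2 with size factors, 1 at a mean of at least 5 FPKM and 0 to 3 with 1 library left out. Marker genes with an unadjusted p under 0.05 numbered 1 in the reported fit, 4 with array weights, 2 with quantile normalization, 0 among those left at a mean of at least 5 FPKM, and 1 to 6 with 1 library left out, the highest without VNS-TAC 1. The share over all tested genes was 15.0% in the reported fit, and 6.67% to 22% with 1 library left out. For the other settings it is not given here. These counts, and those of the lists that follow, are thus not read as results about their genes. For the other myeloid lists 17 became 42 with array weights, 26 without a filter, 9 at a mean of at least 5 FPKM, and 10 to 40 with 1 library left out. The cause was not tested, except that the filters change which genes are counted. No paired analysis was possible because the VNS-TAC columns could not be matched to the labels' replicate numbers. Ly6c2 rests on about 1.3 to 13.3 fragments per library at its coding transcript's length and 4.4 to 44.4 at the length of all exons.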
